A study of Mus musculus with 2 samples.

Results

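The nuclear genes of respiratory chain complexes II, III and IV, of cytochrome c and of ATP synthase (complex V) were compared between wild-type and Srsf10 knockout hearts of mouse embryos. Members were chosen by gene symbol alone: Sdha to Sdhd, Cyc1, Cycs, and every symbol beginning with Uqcr, Cox4i, Cox5, Cox6, Cox7, Cox8 or Atp5, with older symbols taken in where the newer name begins with Atp5f1, Atp5m or Atp5p, which added Usmg5 (Atp5md). This gave 49 of the 17646 genes in the deposited tables, namely 4 genes of complex II, 9 of complex III, cytochrome c, 17 of complex IV and 18 of complex V. Of these, 48 had an RPKM (reads per kilobase of gene length and per 1 M library reads) of at least 1 in a library, and the exception was the testis form Cox7b2 with 6 reads in each. RNA was sequenced from hearts at embryonic day 13.5 on a BALB/c background. There was 1 library with genotype WT and 1 with genotype SRSF10-/-, which lacks the SR-family splicing regulator Srsf10, and the labels name no other allele or treatment. The labels do not say how many embryos went into a library.

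Complex II oxidises succinate and passes the electrons to ubiquinone, complex III passes them on to cytochrome c, and complex IV, cytochrome c oxidase, hands them to oxygen. Complexes III and IV pump protons as they do so, and ATP synthase uses the gradient to make ATP. The catalytic core of complex IV is encoded in the mitochondrial genome, and the nuclear subunits surround it. Several of these come in a form of heart and skeletal muscle and a form of liver and most other tissues, and heart muscle takes up the heart forms as it matures.

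Uniquely mapped reads, summed over the listed genes, numbered 39.61 M for the wild type and 38.89 M for the knockout. These sums are the library reads used throughout. Srsf10 had 5245 reads in wild type against 212 in the knockout, or 35.3 and 1.45 RPKM. The cardiomyocyte markers fixed for the check were all above 1 RPKM in both libraries (15 of 15), with Tnnt2 at 2939.8 and 2305 RPKM. The labelled sex is not given, but 4 Y-linked genes had 2943 reads in wild type against 7 in the knockout, so sex and genotype cannot be told apart. Each genotype is a single library, so differences could be neither replicated nor tested. Higher and lower therefore refer to these 2 libraries, and every interval in parentheses is an exact 95% interval that covers counting error only. In whole heart tissue, fewer cells of a type and less RNA per cell cannot be told apart.

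The promoter windows of the heart and liver isoform genes of complex IV with an entry in RefSeq (build GRCm38.p6, 250 bases before to 50 after the start, 5′ to 3′) are printed here. The heart form Cox6a2 had no such window. They are Cox6a1 at chr5:115348909-115349208 on the minus strand, Cox7a1 at chr7:30183921-30184220 on the plus strand, Cox7a2 at chr9:79759804-79760103 on the minus strand, Cox8a at chr19:7217567-7217866 on the minus strand and Cox8b at chr7:140900397-140900696 on the minus strand. Capitals mark matches on either strand to 5 short words. The word for NRF1, an activator of many respiratory genes, was GCGCANGCG. The word for ETS factors such as the Gabpa protein was CCGGAAG. The TATA word was TATAAA, as found at many tissue-restricted promoters. The E-box word, of the kind bound by myogenic factors, was CAGCTG. The word for the estrogen-related receptors was AAGGTCA.
Cox6a1: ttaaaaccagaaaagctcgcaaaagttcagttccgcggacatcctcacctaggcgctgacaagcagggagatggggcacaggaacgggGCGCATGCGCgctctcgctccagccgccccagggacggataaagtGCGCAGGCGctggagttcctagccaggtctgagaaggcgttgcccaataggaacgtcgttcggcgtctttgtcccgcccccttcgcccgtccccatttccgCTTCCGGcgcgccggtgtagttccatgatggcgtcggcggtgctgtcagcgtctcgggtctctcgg
Cox7a1: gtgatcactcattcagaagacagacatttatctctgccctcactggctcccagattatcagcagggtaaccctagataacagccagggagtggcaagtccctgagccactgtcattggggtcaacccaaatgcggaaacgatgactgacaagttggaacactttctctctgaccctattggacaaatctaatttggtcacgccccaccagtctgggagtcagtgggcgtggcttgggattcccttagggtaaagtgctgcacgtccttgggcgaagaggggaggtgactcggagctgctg
Cox7a2: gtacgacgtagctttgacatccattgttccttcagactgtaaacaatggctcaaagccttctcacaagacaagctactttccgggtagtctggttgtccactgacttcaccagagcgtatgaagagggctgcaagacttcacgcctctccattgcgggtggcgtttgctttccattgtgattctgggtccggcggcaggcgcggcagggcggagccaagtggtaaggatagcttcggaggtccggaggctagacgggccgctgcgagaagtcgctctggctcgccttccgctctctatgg
Cox8a: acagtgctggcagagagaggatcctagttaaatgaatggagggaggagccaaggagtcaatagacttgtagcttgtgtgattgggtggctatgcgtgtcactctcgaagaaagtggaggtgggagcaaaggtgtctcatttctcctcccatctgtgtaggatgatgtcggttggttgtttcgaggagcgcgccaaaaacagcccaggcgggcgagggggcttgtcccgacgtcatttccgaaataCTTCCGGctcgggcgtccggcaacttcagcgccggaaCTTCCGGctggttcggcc
Cox8b: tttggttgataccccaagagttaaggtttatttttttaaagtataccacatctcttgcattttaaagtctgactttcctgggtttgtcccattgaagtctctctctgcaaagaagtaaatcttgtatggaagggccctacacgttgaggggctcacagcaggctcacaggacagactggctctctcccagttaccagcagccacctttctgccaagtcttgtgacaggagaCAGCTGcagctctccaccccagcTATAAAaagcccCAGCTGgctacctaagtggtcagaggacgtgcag
The liver-form windows of Cox6a1, Cox8a and Cox7a2 held 32, 19 and 20 CG dinucleotides, and the heart-form windows of Cox7a1 and Cox8b held 7 and 2. The window of Cox7b, which is neither a heart nor a liver form, held 5. Cox8b carried 1 TATAAA and 2 CAGCTG words, neither of which occurred in the other 4 windows. Its TATAAA and 1 of its CAGCTG words lay after the listed start, beginning at bases 5 and 17. Cox7a1 and Cox7a2 carried none of the 5 words. Cox6a1 carried 3 NRF1 matches, a pair of which overlap on opposite strands, and 1 ETS match, and Cox8a carried 2 ETS matches.

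Across the group, 37 members had RefSeq windows, 40 windows in all. The NRF1 word was found in 13 of the 40 (32.5%), against 13.3% of 12279 windows of expressed genes and 6.24% of all 32817 windows. The ETS word was also found in 13 (32.5%), against 17.3% and 8.86%. The ERR word was found in 5 (12.5%), against 3.14% and 4.72%, and a CCAAT word in 22 (55%), against 37.5% and 37.4%. TATAAA stood in 4 windows (10%), against 7.09% and 13.6%, and CAGCTG in 2 (5%), against 15.4% and 16.3%. The median number of CG dinucleotides was 19 in member windows and 21 in those of expressed genes. A match describes the letters in the window and nothing more.

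Subunit genes were among the most abundant transcripts of the embryonic heart. In level, 41 of the 49 lay in the top 10% of expressed genes, and the median of the 48 measured members was 238 RPKM in wild type against 224 in the knockout. Together they took 1.57% of the library reads in wild type and 1.49% in the knockout. Atp5b, the catalytic beta subunit of ATP synthase, was the most abundant at 1420.2 and 1369 RPKM. In complex IV it was Cox6b1 (783 and 861 RPKM), in complex III Uqcr11 (638 and 549.9 RPKM) and in complex II Sdhb (179 and 165 RPKM). The scale is set by the listed gene length, which ran from 341 to 4715 bases. A long listed form such as that of Atp5g1 (4715 bases) or Cox6c (3038 bases) lowers the RPKM of a gene.

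**Figure D1:**
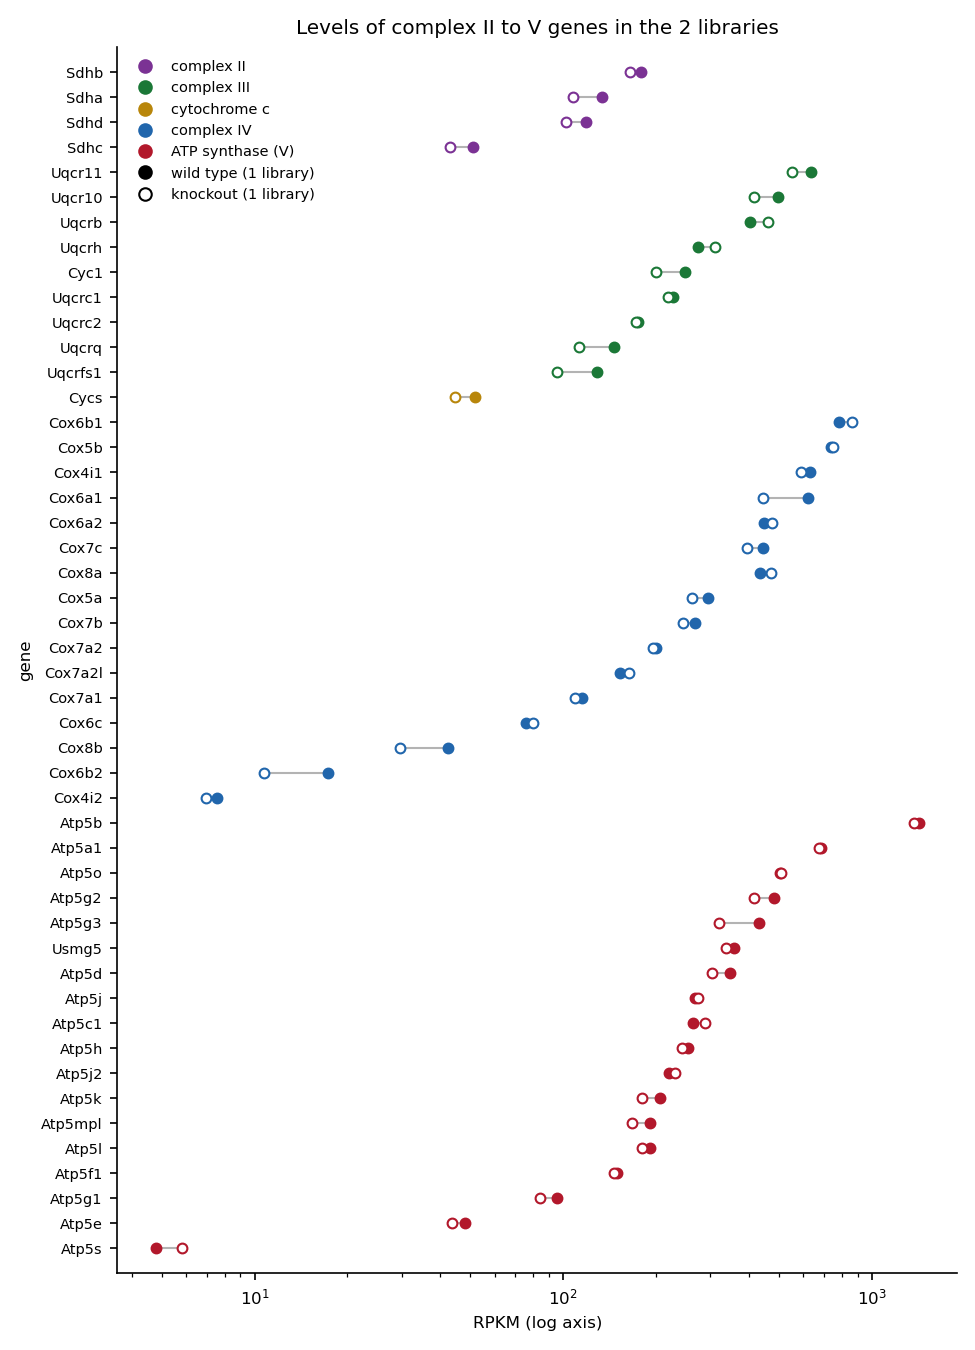
RPKM on a log axis for the 48 measured genes, grouped by complex and ordered by wild-type level; filled circles are the wild-type library and open circles the knockout library. Levels run from 4.78 RPKM (Atp5s, wild type) to 1420.2 RPKM (Atp5b, wild type), and the circles of a gene lie close together.

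The group sat slightly lower in the knockout heart. The log2 ratio of RPKM + 1, knockout over wild type, had a median of -0.09 over the 48 members, with 35 below 0 and 13 above. All 12329 expressed genes had a median of -0.01, with 51.8% below 0. Among all genes with a mean RPKM of at least 50, 61.0% were below 0, against 70.7% of the 41 members that abundant. Counting at least a 1.2-fold difference, 8 members were lower (16.7%) and 0 were higher, where 10.4% of all expressed genes were lower and 10.1% higher. Among the 41 members with a mean RPKM of at least 50, 6 were lower (14.6%) and 0 higher. Of the 1190 genes that abundant, 13.1% were lower and 5.88% higher, and their median log2 ratio was -0.05 against -0.08 for the members. The count of lower members is thus near the background share of abundant genes. At 1.5-fold, 1 member was lower (Cox6b2) and 0 higher, beside 1.44% and 1.52% of all expressed genes. In summed reads the members were 1.06-fold lower (1.05 to 1.06).

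**Figure D2:**
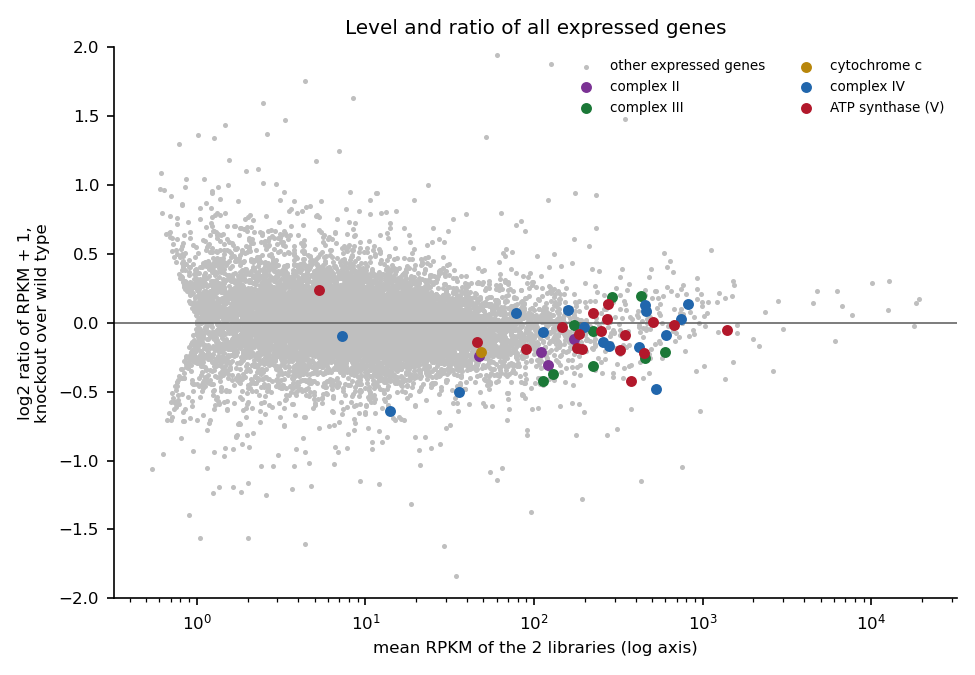
Log2 ratio of RPKM + 1 (knockout over wild type) against mean RPKM on a log axis, with all expressed genes in grey and members coloured by complex; 10 genes beyond 2 in either direction are not drawn. The members gather at high mean RPKM with a median of -0.09, inside the grey cloud.

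Complexes II and III lay lower than complexes IV and V. The median log2 ratio was -0.23 for complex II, -0.21 for complex III, -0.08 for complex IV and -0.07 for complex V. For the 13 complex IV genes with a mean RPKM of at least 50 it was -0.034, beside -0.05 for all genes that abundant. Summed reads in the knockout were 0.849 of the wild type (0.837 to 0.862) for complex II. They were 1.09-fold lower (1.08 to 1.10) for complex III, 1.04-fold lower (1.03 to 1.04) for complex IV and 1.05-fold lower (1.04 to 1.05) for complex V. Differences between complexes were not tested. Their subunits also differed in spread, since complex II genes all shared a direction and each of the other complexes had genes on both sides.

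**Figure D3:**
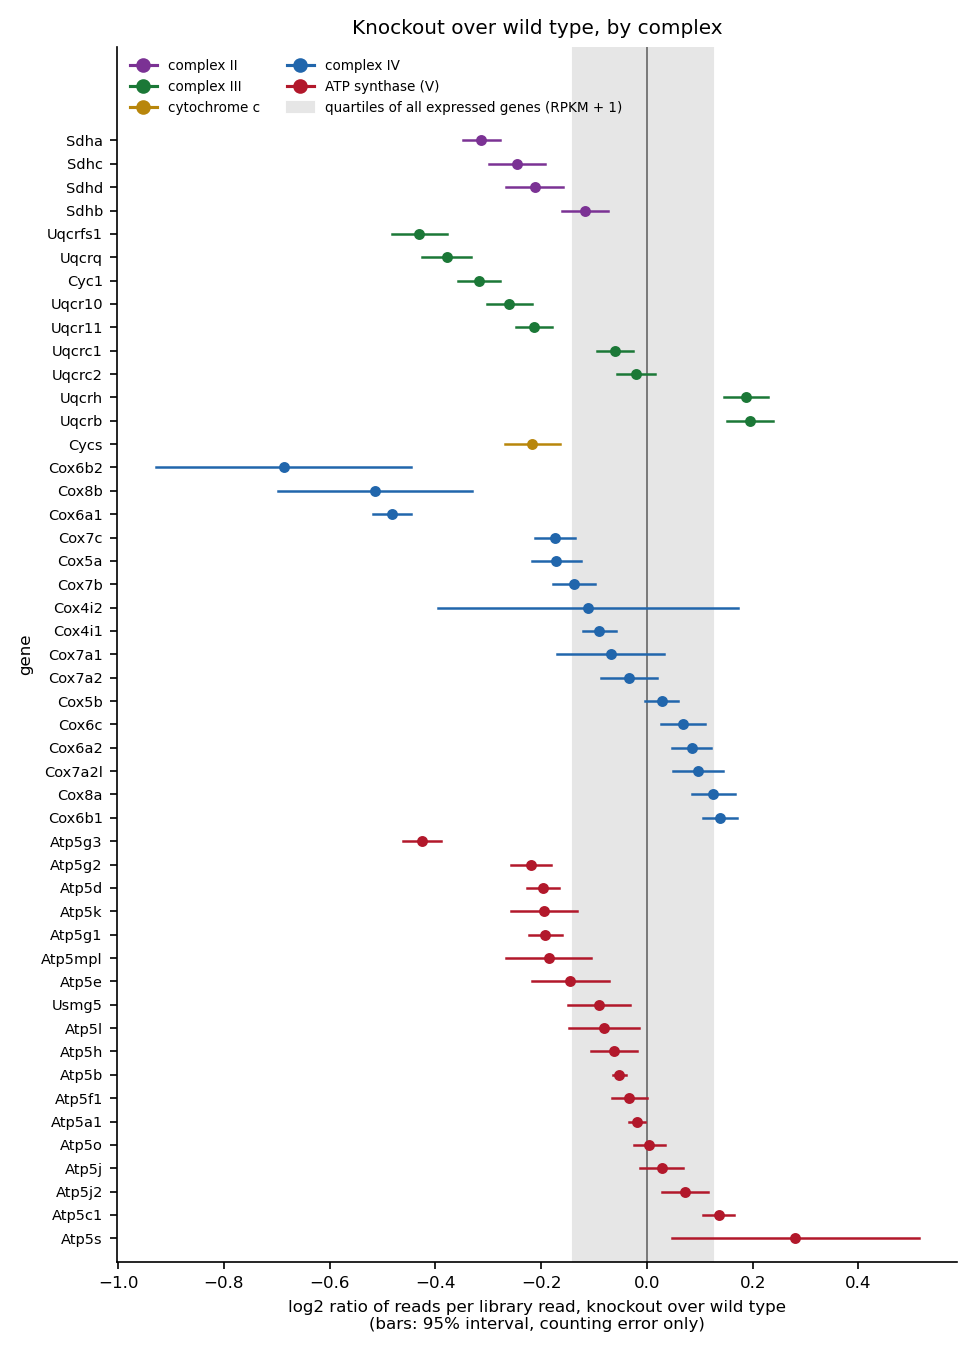
Log2 ratio of reads per library read (knockout over wild type) for each measured gene by complex, with bars for the 95% interval of counting error; the grey band spans the quartiles of all expressed genes on the RPKM + 1 scale (-0.14 to 0.13). All 4 complex II genes lie left of 0, and Uqcrb and Uqcrh stand to the right of the other complex III genes.

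In complex II the 4 genes were lower without exception. Sdha, the flavoprotein that oxidises succinate, had 15312 reads (133 RPKM) in wild type against 12099 (107 RPKM) in the knockout, 1.24-fold lower (1.21 to 1.27). Sdhb, the iron-sulfur subunit, went from 8731 to 7904 reads, 1.08-fold lower (1.05 to 1.12). The membrane anchors Sdhc and Sdhd, which hold the ubiquinone site with Sdhb, went from 50.9 to 43.0 RPKM and from 119 to 102 RPKM. Sdhc was 1.19-fold lower (1.14 to 1.23), and the ratio of Sdhd, knockout over wild type, was 0.863 (0.831 to 0.896). Sdha, Sdhb and Sdhd shared no 31-base word with another annotated gene, and 2.26% of the words of Sdhc were shared.

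In complex III both redox subunits and the small subunit Uqcrq were at least 1.2-fold lower, and the core proteins were near equal. These 3 of 9 genes are 33.3%, where 10.4% of all expressed genes were that much lower. Among all genes with a mean RPKM of at least 50 it was 13.1%. Uqcrfs1, the Rieske iron-sulfur protein, had 6968 reads (129 RPKM) in wild type against 5076 (95.8 RPKM) in the knockout, 1.35-fold lower (1.30 to 1.40). Cyc1, cytochrome c1, had 11775 reads (249 RPKM) and 9272 (199.7 RPKM), 1.25-fold lower (1.21 to 1.28). The core proteins Uqcrc1 and Uqcrc2, which do not carry electrons, were at 228 and 218 RPKM and at 174 and 172 RPKM. Uqcrc1 was 1.04-fold lower (1.02 to 1.07), while the interval of Uqcrc2 included 1 (0.962 to 1.01, knockout over wild type). The 5 small subunits went both ways.

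Uqcrq, a small subunit near the cytochrome b core, had 8809 reads (146 RPKM) in wild type against 6653 (112 RPKM) in the knockout, 1.30-fold lower (1.26 to 1.34). Uqcr10 went from 497 to 415 RPKM, a ratio of 0.835 on reads (0.811 to 0.860), just short of 1.2-fold lower on the RPKM + 1 scale. Uqcr11 went from 638 to 549.9 RPKM, 1.16-fold lower (1.13 to 1.19). Against this direction, Uqcrb went from 402 to 461 RPKM, 1.14-fold higher (1.11 to 1.18), and the hinge protein gene Uqcrh from 273 to 311 RPKM, 1.14-fold higher (1.11 to 1.17). Uqcrb shares 30.5% of its 31-base words with other genes, among them processed pseudogenes, and its length was covered over 99.6% in both libraries, whereas Uqcrh shares 0.649%. Uqcrh and Sdhb lie on chromosome 4, as Srsf10 does.

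Cycs encodes cytochrome c, the mobile carrier between complexes III and IV that also takes part in apoptosis when released. It had 6411 reads (51.8 RPKM) in wild type against 5416 (44.6 RPKM) in the knockout, 1.16-fold lower (1.12 to 1.21). Copies elsewhere hold 32% of its words, but the listed copy with the largest share, Gm10053, received 2 reads in wild type against 0 in the knockout. Cyct, the testis cytochrome c, had 51 and 14 reads.

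Complex IV was mixed. Of 16 measured genes 10 were below 0 and 6 above, and 3 were at least 1.2-fold lower: Cox6b2, Cox8b and Cox6a1. That is 18.8% of them, where 10.4% of all expressed genes were that much lower and 51.8% were below 0. Of the 13 with a mean RPKM of at least 50, 1 was that much lower (7.69%, against 13.1% of all genes that abundant). Below 0 were 7 of these 13 (53.8%, against 61.0% of all genes that abundant), and 6 were above. Among the 7 subunits without a muscle form in use here, Cox4i1 (628 and 590.4 RPKM), Cox5a (295 and 262 RPKM), Cox7b (268 and 244 RPKM) and Cox7c (444 and 394 RPKM) were lower in the knockout. Cox5b (735 and 749.5 RPKM), Cox6b1 (783 and 861 RPKM) and Cox6c (75.9 and 79.6 RPKM) were higher, although the interval of Cox5b included 1 (0.998 to 1.04). Their log2 ratios ran only from -0.17 (Cox7c) to 0.14 (Cox6b1), and Cox6b1, which helps join the dimer on the intermembrane side, was 1.10-fold higher (1.08 to 1.12). Cox7b is X-linked and was 1.10-fold lower (1.07 to 1.13). Cox7a2l, a Cox7a relative that links complexes III and IV into supercomplexes, was 1.07-fold higher (1.03 to 1.10).

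The forms of restricted tissues were low beside most other members. Cox4i2, the lung and hypoxia form of subunit 4, had 219 reads (7.54 RPKM) and 199 (6.98 RPKM), with an interval of 0.760 to 1.13 for knockout over wild type. Cox6b2, a testis form, had 377 reads (17.3 RPKM) in wild type against 230 (10.7 RPKM) in the knockout, 1.61-fold lower (1.36 to 1.90). It was the member with the lowest ratio, above 62.4% of expressed genes in level, and Cox8c, another testis form, is listed in neither table.

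The 3 pairs of heart and liver forms differed in direction. For subunit 6a, the heart form Cox6a2 had 11650 reads (447 RPKM) in wild type against 12127 (474 RPKM) in the knockout, 1.06-fold higher (1.03 to 1.09). The liver form Cox6a1 had 15211 reads (619 RPKM) and 10695 (444 RPKM), 1.40-fold lower (1.36 to 1.43). The heart form made up 41.9% of the pair's RPKM (41.3 to 42.5) in wild type against 51.7% (51.0 to 52.3) in the knockout. The ratio of heart to liver form was 0.722 and 1.07, a factor of 1.48 (1.43 to 1.53), and the summed RPKM of the pair was 1066 and 918.

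For subunit 7a, Cox7a1 had 1657 reads (115 RPKM) in wild type against 1551 (109.6 RPKM) in the knockout, and Cox7a2 had 5968 reads (199.8 RPKM) and 5722 (195 RPKM). The heart form was 36.5% (35.2 to 37.8) and 35.96% (34.7 to 37.3) of the pair. The ratio of heart to liver form was 0.575 and 0.561, and the factor between libraries was 0.976 with an interval of 0.902 to 1.06. A shift of this pair was not detectable beyond counting error.

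For subunit 8, Cox8b had 605 reads (42.2 RPKM) in wild type against 416 (29.6 RPKM) in the knockout, 1.43-fold lower (1.26 to 1.62). Cox8a had 9339 reads (433 RPKM) and 9999 (472 RPKM), 1.09-fold higher (1.06 to 1.12). The heart form was 8.89% of the pair (8.23 to 9.58) in wild type against 5.89% (5.36 to 6.46) in the knockout, a factor of 0.642 (0.564 to 0.731) in the heart to liver ratio. The heart share was thus larger in the knockout library for subunit 6a, smaller for subunit 8 and near equal for subunit 7a. Summed over the 3 pairs, heart forms were at 604 and 613 RPKM and liver forms at 1252 and 1111 RPKM.

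**Figure D4:**
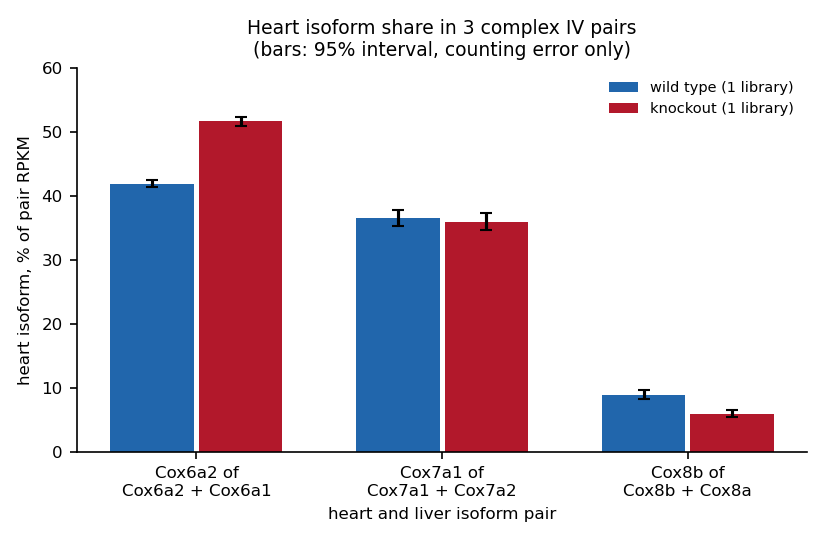
Heart form as a percent of the summed RPKM of heart and liver form, for 3 complex IV pairs in the wild-type library (blue) and the knockout library (red); error bars are 95% intervals of counting error. The Cox6a2 share is 41.9% and 51.7%, the Cox7a1 share 36.5% and 35.96%, and the Cox8b share 8.89% and 5.89%.

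Heart forms of complex IV are also used in skeletal muscle. Of the genes listed as its markers, Tnnc2, Myod1, Myog, Myf6 and Pax7 were under 1 RPKM in both libraries. Whether skeletal muscle was present was not tested. Of 10 skeletal muscle markers 9 were listed and 4 measured. By at least 1.2-fold 3 were higher (75%) and 1 lower (25%), beside 10.1% and 10.4% of all expressed genes. The 9 listed markers summed to 138 RPKM in wild type against 189 in the knockout. Tnni2 alone sets the direction of this sum, at 24.4 and 96.8 RPKM. The other 8 listed markers summed to 114 and 91.8 RPKM, most of it Ckm (102 and 75.1 RPKM). The other measured markers, Tnnt3 (3.53 and 7.36 RPKM) and Mylpf (6.72 and 8.93 RPKM), were higher in the knockout, as Tnni2 was. Tnni2 was 3.97-fold higher (3.68 to 4.28) and Ckm 1.36-fold lower (1.30 to 1.41). The myogenic factors were near 0, with Myod1 at 18 and 2 reads, Myog at 41 and 18, and Myf6 at 0 in the wild type. Cardiomyocyte markers had 11 of 15 below 0, a median log2 ratio of -0.08 and a summed RPKM of 21940.3 and 20021.6. Actc1, the most abundant, was at 6350.2 and 5799 RPKM, and Myl3 was 1.33-fold lower (1.31 to 1.35). The part of either tissue in the isoform shares was not tested.

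ATP synthase genes differed by part of the enzyme. The c-ring, the rotor in the membrane, is built from 3 genes, Atp5g1, Atp5g2 and Atp5g3, that encode the same mature protein. All of them were lower in the knockout: summed reads went from 44922 to 36519, 1.21-fold lower (1.19 to 1.22). Atp5g3 had 14673 reads (429.7 RPKM) in wild type against 10722 (319.9 RPKM) in the knockout, 1.34-fold lower (1.31 to 1.38). Atp5g2 measured 482 and 414 RPKM, 1.16-fold lower (1.13 to 1.19), and Atp5g1 95.8 and 83.8 RPKM, 1.14-fold lower (1.12 to 1.17). Atp5g3 made up 42.6% of the c-ring RPKM in wild type against 39.1% in the knockout, Atp5g2 47.9% and 50.7%.

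The catalytic head was near equal. Atp5a1, the alpha subunit, had 72303 reads (683 RPKM) and 70074 (674 RPKM), a ratio of 0.987 (0.977 to 0.998), or 0.99987 when scaled to reads outside the mitochondrial genes. Atp5b had 107790 reads and 102020, 1.04-fold lower (1.03 to 1.05). In the central stalk, the gamma subunit gene Atp5c1 was 1.10-fold higher (1.08 to 1.12) at 263 and 289 RPKM, and the delta subunit gene Atp5d 1.15-fold lower (1.12 to 1.17) at 347 and 303 RPKM. Atp5e, the epsilon subunit gene, was at 48.1 and 43.5 RPKM. Alpha and beta, present in equal number in the enzyme, thus differed little between libraries, and the stalk subunits lay on both sides of 0.

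The peripheral stalk, which holds the head still, lay nearest to equal of these parts, with a median log2 ratio of -0.01. Atp5o (OSCP) was at 505 and 506 RPKM, Atp5j (factor 6) at 267 and 272, Atp5h (subunit d) at 253 and 243, and Atp5f1 (subunit b) at 149 and 146. In summed reads these 4 genes were 1.01-fold lower (0.997 to 1.02). Atp5o and Atp5j overlap other annotated genes, Atp5j with Gabpa, which encodes a subunit of an ETS factor and had 3924 and 4036 reads. The use of strand is not given, so reads in such stretches cannot be told apart. Atp5h shares 27.8% of its words with genes elsewhere in the genome. The covered length differed between wild type and knockout for Atp5o (74.25% and 93.13%) and Atp5f1 (76.49% and 91.18%).

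The small membrane subunits that shape the dimer had a median log2 ratio of -0.09. Atp5k (subunit e) was 1.14-fold lower (1.10 to 1.19) and Atp5mpl stood at a ratio of 0.879 (0.832 to 0.929), at 205 and 179 RPKM and at 191 and 168 RPKM. Atp5l (subunit g) was at 190.5 and 180.2 RPKM, Usmg5 (DAPIT) at 358 and 337 and Atp5j2 (subunit f) at 219 and 231. Atp5s, which encodes coupling factor B, was the member with the highest ratio, at 281 reads (4.78 RPKM) and 335 (5.80 RPKM), 1.21-fold higher (1.03 to 1.43). Atpif1, the inhibitor of ATP hydrolysis, which neither its listed name nor those newer names bring in, was at 279 and 309 RPKM, and other genes share 32% of its words.

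Other genes of the pathway were read against the same background. Of 37 assembly factors of complexes II to V, 35 were listed and 34 measured. The median log2 ratio of the 34 was -0.11, with 25 below 0, and 6 passed 1.2-fold on the lower side (17.6%) and 1 on the higher (2.94%), beside 10.4% and 10.1% of all expressed genes. The 6 were Sdhaf4 (complex II), Uqcc2 and Bcs1l (complex III), and Atpaf1, Fmc1 and Tmem70 (ATP synthase). Uqcc2, the most abundant factor, measured 101 and 70.1 RPKM, 1.44-fold lower (1.36 to 1.54), and Bcs1l, which inserts the Rieske protein into complex III, 11.9 and 8.50 RPKM, 1.40-fold lower (1.26 to 1.55). Lyrm7, which carries the Rieske protein before its insertion, was 1.32-fold higher (1.16 to 1.51) at 403 and 524 reads. Fmc1 had the lowest ratio of the list at 1480 and 674 reads. Reads covered 94.4% of its 500 listed bases in wild type and 75% in the knockout.

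Nuclear complex I subunits and paralogs, 37 in number, had a median log2 ratio of 0.01. Of these, 0 were at least 1.2-fold lower and 3 higher (8.11%), beside 10.4% and 10.1% of all expressed genes. For all genes with a mean RPKM of at least 50 the shares were 13.1% and 5.88%. Ndufa4, which carries a complex I name but is a complex IV subunit, was at 519 and 443 RPKM, 1.17-fold lower (1.14 to 1.21), and its paralog Ndufa4l2 had 201 and 379 reads. The 6 mitochondrially encoded partners in complexes III, IV and V had a median of 0.15 with 5 above 0. Among them mt-Atp8 was 1.22-fold higher (1.21 to 1.23). The most abundant in wild type, mt-Co3 (17951.1 RPKM, beside 17941.1 for mt-Co2), was 1.02-fold lower (1.01 to 1.02). Other genes share 100%, 99.9%, 99.5% and 63.9% of the words of mt-Co2, mt-Co3, mt-Atp6 and mt-Co1. For mt-Cytb and mt-Atp8 it was 6.55% and 7.47%. Since only uniquely mapped reads were counted, levels of genes with many shared words are less certain. Mitochondrial genes took 11.0% of reads in wild type against 12.1% in the knockout. The 13 citric acid cycle genes had a median of 0.02, with 8 above 0 and 5 below. Citrate synthase (Cs) was at 233 and 234 RPKM, and Mdh2, the most abundant, at 367 and 378. Idh3b and Idh3a, subunits of isocitrate dehydrogenase, had log2 ratios of -0.29 and -0.18, inside the range of complex II (-0.31 to -0.12). Idh3g, a further subunit of that enzyme, had a log2 ratio of 0.04, outside that range. Idh3b was 1.23-fold lower (1.19 to 1.27).

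Of the 6 carriers and channels 5 were below 0, with a median of -0.10. Slc25a3, which brings in the phosphate that ATP synthase uses, measured 186 and 149 RPKM, 1.25-fold lower (1.23 to 1.27), while Slc25a4, the heart and muscle ADP/ATP carrier, measured 538 and 563 RPKM, 1.05-fold higher (1.03 to 1.06). Among 17 regulators, 16 were measured, with a median of -0.07, 3 at least 1.2-fold lower (18.8%) and 1 higher (6.25%), beside 10.4% and 10.1% of all expressed genes. Nrf1 was at 9.77 and 8.30 RPKM, Gabpa at 19.9 and 20.8, Esrra at 13.1 and 14.5, and the coactivator Ppargc1a at 14.7 and 13.7. Tfb2m, a transcription factor of the mitochondrial genome, was 1.33-fold lower (0.667 to 0.842, knockout over wild type) with 43.9% of its words shared, and its paralog Tfb1m was 1.26-fold higher (1.12 to 1.42). Mef2a, the most abundant, was at 46.2 and 42.5 RPKM.

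**Figure D5:**
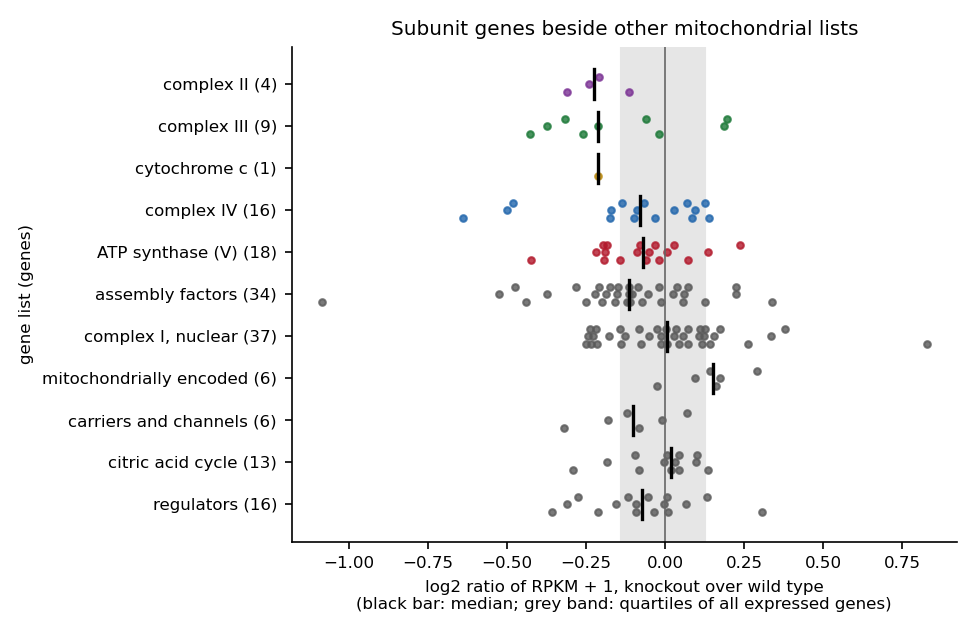
Log2 ratio of RPKM + 1 (knockout over wild type) for each measured gene of the complexes (coloured) and of 6 other mitochondrial lists (grey points), with the median as a black bar and the quartiles of all expressed genes as a grey band. Medians are -0.23 and -0.21 for complexes II and III, 0.01 for nuclear complex I and 0.15 for mitochondrially encoded genes.

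Other cell types also differed between the libraries. Of 6 fibroblast and cushion markers 6 were below 0, with a summed RPKM of 813 in wild type against 567 in the knockout, Col1a1 being 1.51-fold lower (1.49 to 1.53) and Dcn 1.55-fold lower (1.49 to 1.61). Of 8 macrophage markers 7 were above 0, with sums of 61.6 and 81.5 RPKM. Lyz2, the most abundant, had 927 and 1275 reads and Fcgr3 186 and 350. The 12 erythroid markers, 9 of them measured with 7 below 0, summed to 4935 and 3816 RPKM, with Hbb-y at 2077 and 1911 and Hbb-bt at 138 and 52.5. The 6 hepatocyte markers summed to 7.01 and 4.09 RPKM, with Alb at 0 in the knockout, Afp at 145 and 4 reads and Apoa2 at 39 and 42. Of 5 endothelial markers 4 were above 0, with sums of 206 and 208 RPKM, and Cdh5 was 1.17-fold lower (1.14 to 1.21). The brown fat markers Ucp1 and Cidea had 2 and 6 reads and 50 and 78 reads. The part of these cell types in the subunit levels was not tested.

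The share of listed length covered by reads, which the authors deposited, was within 10 percentage points between libraries for 41 of the 48 members. It was lower in the knockout by more than that for 5 members and higher for 2. Cox6a1 was covered over 98.23% of its length in wild type against 87.1% in the knockout, Cox7c over 99.29% and 88.01%, Cox7a2 over 92.18% and 79.05%, Cycs over 95.55% and 84.89%, and Atp5j2 over 67.75% and 49.53%. Atp5f1 (76.49% and 91.18%) and Atp5o (74.25% and 93.13%) went the other way.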

How the data were processed

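RNA from hearts at embryonic day 13.5 was sequenced from 1 wild-type and 1 Srsf10 knockout library. Alignment with Bowtie 0.12.2 and genome mm9 are named in the submitters' processing notes. Sources used here do not give the annotation release, the filters or whether strand was used. The authors deposited, per the file headers, counts of uniquely mapped reads per Ensembl gene, RPKM and the covered share of each gene's length. Ensembl identifiers were given symbols for 17196 of 17646 genes.

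Computed here were log2 ratios of RPKM + 1 for genes with at least 1 RPKM in a library, folds of reads per library read with exact conditional binomial (Clopper-Pearson) 95% intervals, and isoform ratios with exact conditional odds ratio intervals (scipy 1.17.1). Intervals cover counting error only, since reads are not independent molecules. A pseudocount of 1 understates ratios of low genes. No test was run, since no group has a second library. TMM factors came from edgeR 4.0.16. The functions were tested on simulated data. Shared 31-base words were counted against GENCODE M21 transcripts (GRCm38), with 20% as the limit for a near-identical copy. Promoters came from RefSeq.

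Members and lists were chosen with earlier results of these data known. All members were described, with full statistics for the isoforms, catalytic or redox subunits, and in each complex the most abundant member and those with the highest and lowest ratio. From other lists the most abundant member and that with the largest absolute ratio were named. Further names (Sdhaf4, Bcs1l, Atpaf1, Tmem70, Lyrm7, Tfb1m, Nrf1, Gabpa, Esrra, Ppargc1a, Cs, Idh3a, Idh3g, Atpif1, mt-Co1, mt-Co2, mt-Atp6, mt-Cytb and markers) were added after their values were seen.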

Additional observations from a re-analysis of the deposited data

How the results depend on the processing

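The medians of the members and of each complex stayed below 0 under pseudocounts of 0.1 and 5, no filter, a mean RPKM of at least 50, TMM factors, scaling to reads outside the mitochondrial genes, centring on all genes or by gene length, and leaving out near-identical copies. Of 79 alternative values for groups and pairs, 75 stayed within counting error or 1.5 times the count, and 4 moved. Of 96 for single genes 94 stayed within counting error. The exceptions came with scaling to reads outside the mitochondrial genes, where the ratio of Atp5a1 was 0.99987 instead of 0.987, so that it was no longer lower, and that of Atp5b 0.976 instead of 0.964. With a pseudocount of 0.1, 1 member (Atp5s) was at least 1.2-fold higher instead of 0. At a mean RPKM of at least 50, the complex IV median was -0.034 instead of -0.08. Without 9 members that share at least 20% of their words with other genes, the median of all members was -0.14 instead of -0.09 and that of complex III -0.26 instead of -0.21, since Uqcrb and Uqcrc2 are among those left out. Leaving out only the 6 members with copies elsewhere in the genome, an alternative chosen after seeing the data, gave a median of -0.11. The count of members at least 1.2-fold lower was 8 under each of these settings except a mean RPKM of at least 50, where it was 6. No paired analysis was possible because each group holds 1 library. Depth limits the low members: 5 had under 1000 reads in a library (Cox8b, Cox6b2, Cox4i2, Atp5s and Cox7b2).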
